A study of Danio rerio with 23 samples.

Results

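Serotonin is made from tryptophan in a short chain of steps, and fev, an ETS-family transcription factor, is known in mammals as a driver of that chain in serotonergic neurons. The genes described here are fev (ENSDARG00000009242) and the 8 zebrafish genes for the synthesis, vesicle loading, uptake and breakdown of serotonin: both genes named TPH1, tph2, ddc, slc18a2, slc6a4a, slc6a4b and mao. They were chosen by name and function, with earlier results of these data known. All 9 were found among the 31902 features counted in the endoderm libraries and the 31901 counted in the enteroendocrine cell (EEC) libraries. The question was whether endoderm in which fev is counted also carries the serotonin genes, and whether EECs of a neurod1 mutant keep them.

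A tryptophan hydroxylase (TPH1 or tph2) adds a hydroxyl group to tryptophan, the rate-limiting step, and the decarboxylase encoded by ddc then yields serotonin. The vesicular transporter encoded by slc18a2 loads the amine into secretory vesicles, the plasma membrane transporters encoded by slc6a4a and slc6a4b take it back up, and the monoamine oxidase encoded by mao degrades it. In the gut of vertebrates most serotonin comes from enterochromaffin cells, a class of EECs, and in mouse Fev also marks endocrine progenitors of the pancreas. The name tables pair ENSDARG00000029432 and ENSDARG00000036082 alike with TPH1, without saying which is tph1a and which is tph1b, so both are given with their identifier.

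Sorted zebrafish cells (strain AB) of 2 kinds were sequenced, in 23 libraries and 7 groups. EECs were sorted as GFP-positive cells from the dissected gut of Tg(pax6b:GFP) larvae at 4 days post fertilization (dpf), from about 200 larvae per library, either homozygous for a deletion of the ultra-conserved element of the endogenous neurod1 gene (neurod1delUCE-/-, called mutant, n = 4) or wild type (WT, n = 3). Endodermal cells were sorted as dsred-positive cells from the trunk of about 150 wild-type embryos per library carrying Tg(sox17:dsred), heat-shocked at 38 and 48 hours post fertilization (hpf) and collected at 52 hpf. They carried a further transgene under the heat-inducible hsp70l promoter for Neurod1delUCE (n = 3), for Neurod1delECD (n = 3), which lacks the whole evolutionary conserved domain around this element, for Neurod1 (n = 4) or for Ascl1a (n = 3), or none (control, n = 3). The mutant is a single allele, the hsp70l promoter is not restricted to the endoderm, and pooled animals make each library a mean over many. The dissection was meant to leave out the pancreas. The labels number the replicates without saying whether they came from separate crosses, so p-values measure the spread between these pools. Fewer cells of a type and less RNA per cell cannot be told apart in such bulk libraries.

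Total counts per library ranged from 8626863 to 15894943 in EECs and from 8364374 to 22301304 in endoderm. Levels are given as counts per 1000000 reads (CPM) after TMM normalization within each experiment, where 3 counts, the floor used here, stood at 0.227 to 0.304 CPM in EECs and at 0.153 to 0.369 CPM in endoderm. The libraries had no molecular identifiers, so floors and counting intervals cover counting error only. DE genes had a Benjamini-Hochberg FDR of at most 0.1 in edgeR's quasi-likelihood test over all genes tested (16154 in EECs, 18911 in endoderm). All 9 EEC markers were counted in EECs of both genotypes, with a summed level of 4613 to 5466 CPM in mutant EECs and 4954 to 6107 CPM in WT EECs, and all 8 endoderm markers in endoderm. Of these, sox17 was low, at 0.0766 to 0.75 CPM with Neurod1 and 0.53 to 1.80 CPM in controls. It was not counted in EECs. The endoderm markers summed to 1957 to 2373 CPM in WT EECs and 1466 to 2253 CPM in control endoderm, so this sum does not tell the 2 kinds of cells apart. In the transgene check, the reading frame of ascl1a had 28.0 to 263 CPM with Ascl1a, against no more than 2.71 CPM in all other endoderm. The authors' added feature for the neurod1 transgenes was at 1191, 1.52 and 1.69 CPM in the libraries labelled Neurod1delUCE, 3.95 to 7.33 CPM with Neurod1delECD, 19.0 to 53.9 CPM with Neurod1, 21.8 to 177 CPM with Ascl1a and 0.118 to 1.09 CPM in controls. It therefore did not check the label of the last 2 Neurod1delUCE replicates, and it was also counted in the libraries labelled Ascl1a.

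**Figure D1:**
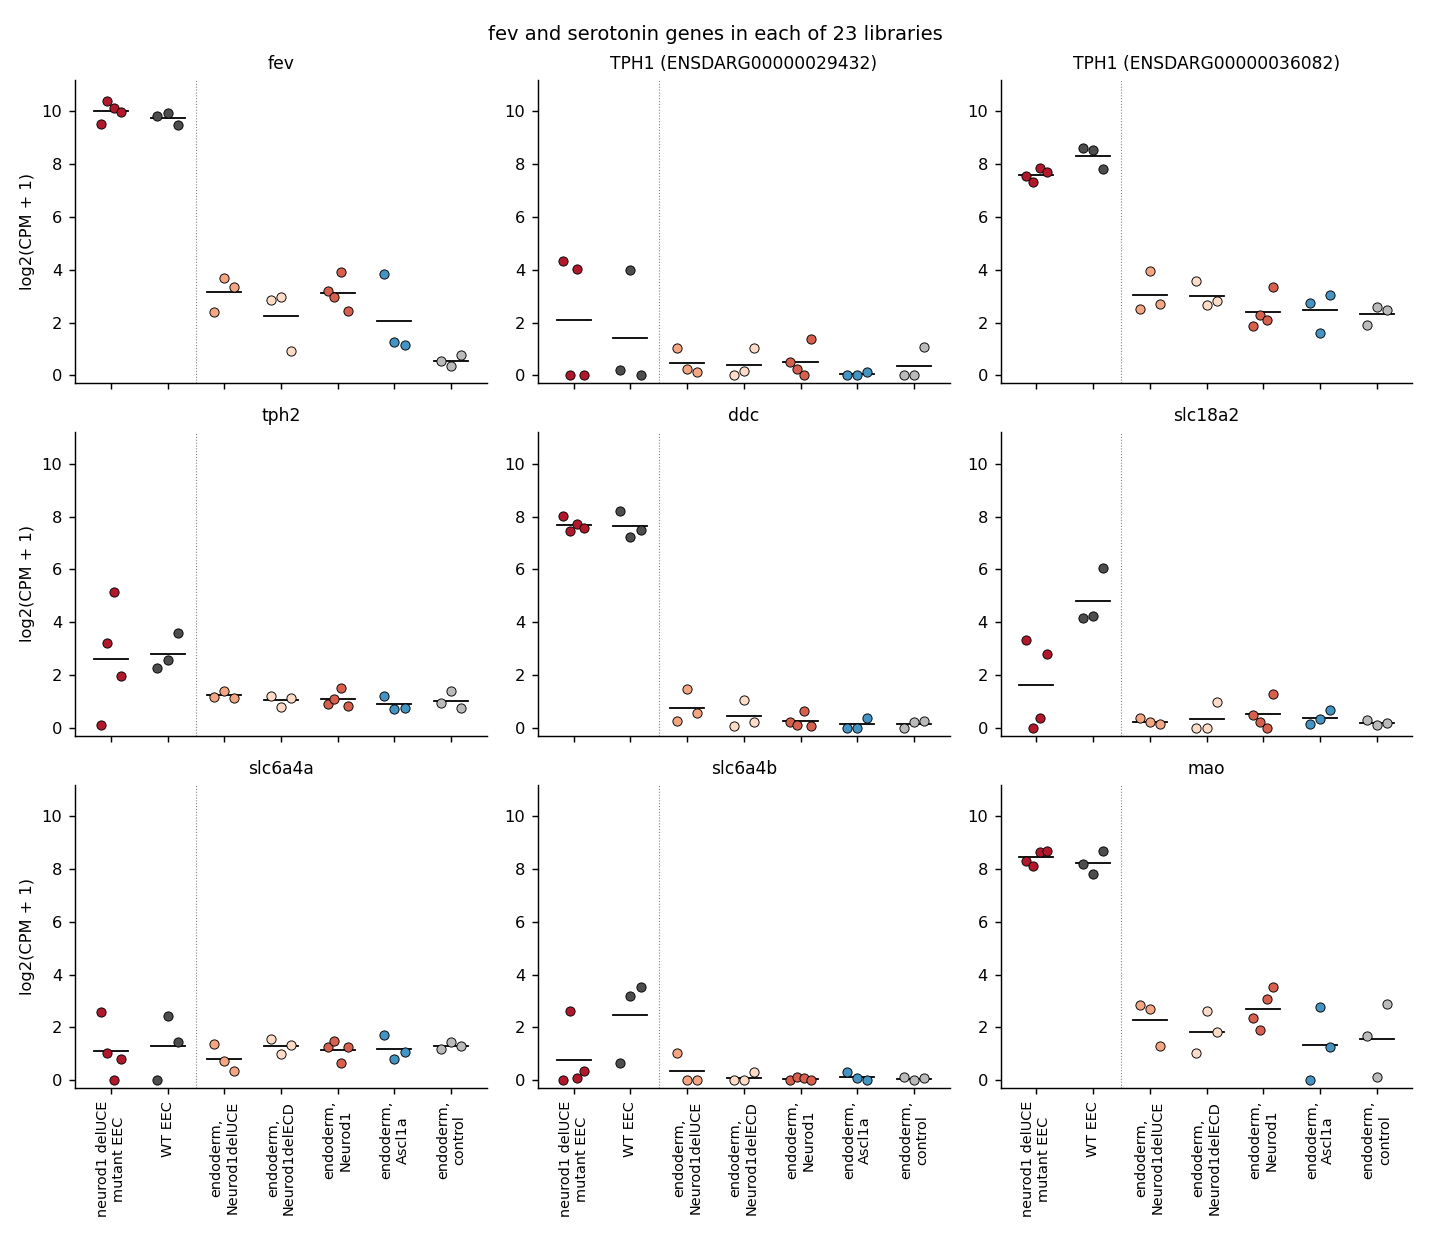
Each panel plots 1 gene, with log2(CPM + 1) on the vertical axis (all 23 libraries normalized together) and the 7 groups on the horizontal axis; points are libraries and bars are group means of log2 values. The EEC groups stand left of the dotted line. fev, TPH1 (ENSDARG00000036082), ddc and mao form a high EEC level and a low endoderm level, while TPH1 (ENSDARG00000029432) and slc6a4a are scattered between libraries of the same group.

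fev was the one of the 9 genes that stood above controls in each library of each transgene group. With Neurod1delUCE it was at 4.19, 10.8 and 9.06 CPM. With Neurod1delECD it was at 5.85, 6.13 and 0.839 CPM. The 4 Neurod1 libraries had 7.74, 6.67, 13.9 and 4.38 CPM, the Ascl1a libraries 13.8, 1.36 and 1.12 CPM, and the controls 0.436, 0.27 and 0.707 CPM. No library with a transgene overlapped the controls, but the lowest, Neurod1delECD replicate 3, was close to the highest control, and 2 of the 3 Ascl1a libraries were also near it. The control values rest on 6, 3 and 12 reads, against 45, 142 and 102 with Neurod1delUCE, 115, 104 and 11 with Neurod1delECD, 101, 80, 225 and 73 with Neurod1 and 112, 22 and 12 with Ascl1a. Summed reads per library size were 16.4 times the control level with Neurod1delUCE (95% counting interval 10.5 to 26.9), 9.22 times with Neurod1delECD (5.89 to 15.2), 16.5 times with Neurod1 (10.7 to 26.9) and 8.33 times with Ascl1a (5.25 to 13.9).

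In edgeR's quasi-likelihood test fev did not pass the FDR against controls with any transgene. With 3 to 12 reads per control library, it passed the filter on low counts through its reads in libraries with a transgene. The tests of fev against controls are thus in part set by the filter and are given as a description. The log2 fold change was 4.04 with Neurod1delUCE (standard error 1.01, edgeR FDR 0.25), 3.14 with Neurod1delECD (standard error 0.98, FDR 0.75), 4.07 with Neurod1 (standard error 0.99, FDR 0.405) and 3.46 with Ascl1a (standard error 0.99, FDR 0.795). Few genes passed at all: 0.0582% of the 18911 tested genes were called higher with Neurod1delUCE, 0.0423% with Neurod1delECD, 0.0423% with Neurod1 and 0.00529% with Ascl1a. An unadjusted p under 0.05, which fev had each time, was found for 7.11% of genes with Neurod1delUCE, 6.13% with Neurod1delECD, 4.25% with Neurod1 and 6.11% with Ascl1a. All libraries above all controls, as for fev, were found for 4.6% of genes with Neurod1delUCE, 8.97% with Neurod1delECD, 4.03% with Neurod1 and 6.48% with Ascl1a. DESeq2, the tool of the study, gave fev an adjusted p of 0.00349 with Neurod1delUCE, 0.128 with Neurod1delECD, 0.00184 with Neurod1 and 0.067 with Ascl1a, so it called fev with 3 of the 4 transgenes, where it called 0.746% of genes higher with Neurod1delUCE, 0.312% with Neurod1delECD, 0.418% with Neurod1 and 0.1% with Ascl1a. These comparisons share the 3 controls.

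The level of fev with Ascl1a rested on 1 library. Replicate 1 had 13.8 CPM, and without it the log2 fold change against controls was 1.37. The deleted forms and full-length Neurod1 overlapped, with a log2 fold change of -0.41 for the deleted forms over Neurod1 (95% interval -1.85 to 1.03, edgeR FDR 1.0), where edgeR called 0% of genes higher and 3.93% had an unadjusted p under 0.05. Neurod1 over Ascl1a gave 0.60 (95% interval -1.15 to 2.36, edgeR FDR 0.992), and without Ascl1a replicate 1 it gave 2.71 (edgeR FDR 0.878). There, 0.037% of genes were called higher and 5.37% had an unadjusted p under 0.05. No difference in fev between the transgenes was detectable, and differences of more than 2-fold lie within both intervals.

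The markers of the endocrine lineage varied beside fev. The 9 EEC markers summed to 121 to 267 CPM with Neurod1delUCE, 81.5 to 115 CPM with Neurod1delECD, 222 to 599 CPM with Neurod1, 19.1 to 75.2 CPM with Ascl1a and 17.2 to 80.1 CPM in controls. Ascl1a replicate 1 had both the highest fev and the highest EEC marker sum of its group, 75.2 CPM against 19.1 and 34.5 CPM in the other Ascl1a libraries. Neurod1 replicate 3 had the highest fev of all endoderm but not the highest EEC marker sum, which was 296 CPM there and 599 CPM in replicate 1. Neurod1delUCE replicate 1 had the highest EEC marker sum of its group, 267 CPM, with the lowest fev, 4.19 CPM. Control replicate 3 had the highest fev of the controls, only 0.707 CPM, with 80.1 CPM of EEC markers. The 5 counted markers of pancreatic endocrine cells, which express Fev as progenitors in mouse, summed to 61.6 to 1203 CPM with Neurod1delUCE, 17 to 258 CPM with Neurod1delECD, 71.0 to 689 CPM with Neurod1, 61.7 to 290 CPM with Ascl1a and 43.7 to 215 CPM in controls. This sum is not specific, since gcga and sst2 are also EEC hormones and pdx1 alone was at 36.6 to 52.3 CPM in controls. With Neurod1delUCE, the highest fev and the highest sum fell in 1 library, replicate 2 (1203 CPM). The same held with Neurod1 (replicate 3, 689 CPM), with Ascl1a (replicate 1, 290 CPM) and in controls (replicate 3, 215 CPM). With Neurod1delECD, replicate 1 had the highest sum, 258 CPM, replicate 2 the highest fev and replicate 3 the lowest of both. Neurod1delUCE replicate 3 had 61.6 CPM with fev at 9.06 CPM, and Ascl1a replicate 3 had 239 CPM with fev at 1.12 CPM. ins alone was at 48.0 to 624 CPM with Neurod1delUCE and 0.153 to 87.8 CPM with Neurod1delECD. It reached 202 CPM with Neurod1, 71.6 CPM with Ascl1a and 38.5 CPM in controls, each from 0. The 7 counted neuronal markers summed to 22.9 to 92.8 CPM over all libraries with a transgene and to 9.16 to 297 CPM in controls. Control replicate 3 had the 297 CPM and also 17260 CPM of muscle markers, against 521 and 107 CPM in the other controls. This library held 12 of the 21 fev reads, 107 of the 137 mao reads and all 18 TPH1 (ENSDARG00000029432) reads of the controls. Muscle markers reached 8634 CPM in Neurod1 replicate 2, pigment markers 3240 CPM in Neurod1 replicate 3 and erythrocyte markers 3506 CPM in Ascl1a replicate 1. The part of such cells in the fev counts was not tested.

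None of the serotonin genes that could be tested passed the FDR in endoderm. Of the 8, 5 passed the filter on low counts and were tested with each transgene in edgeR. None had an unadjusted p under 0.05 there, and DESeq2 called none. Over the 6 tested genes with fev included, the median log2 fold change against controls was 0.41 with Neurod1delUCE, -0.05 with Neurod1delECD, 0.37 with Neurod1 and -0.19 with Ascl1a, beside medians over all 18911 genes between -0.0324 and 0.0193. fev passed the filter through its reads in libraries with a transgene. These medians are thus in part set by the filter, are not those of the 5 serotonin genes alone and are given as a description. Summed over the 8 serotonin genes, the libraries had 8.88 to 22.4 CPM with Neurod1delUCE, 12.3 to 14.3 CPM with Neurod1delECD, 9.5 to 25.0 CPM with Neurod1, 9.35 to 10.9 CPM with Ascl1a and 7.12 to 14.2 CPM in controls. Each transgene group overlapped the controls in this sum.

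**Figure D2:**
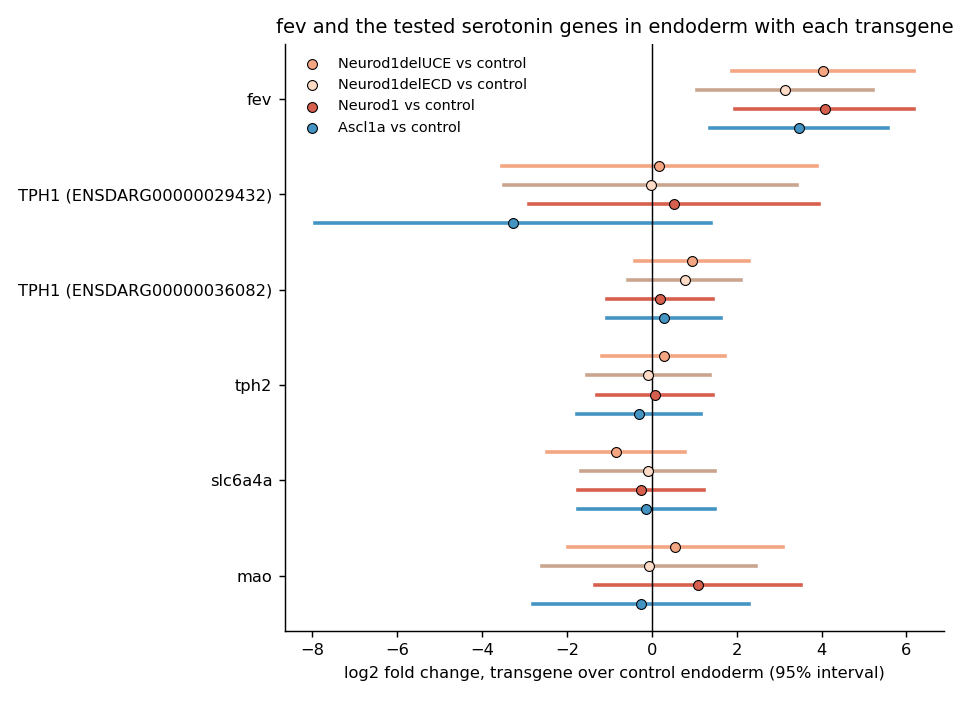
The horizontal axis gives the log2 fold change of each transgene group over control endoderm, as a point with its 95% interval from edgeR's quasi-likelihood test, for the 6 genes that passed the filter on low counts; colours mark the transgenes. The intervals of fev lie above 0 with all 4 transgenes, from 1.06 at the lowest bound, although no FDR passed, and those of the 5 serotonin genes include 0.

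Tryptophan hydroxylase was present at a low level in all endoderm through TPH1 (ENSDARG00000036082). It was at 4.65, 13.2 and 5.42 CPM with Neurod1delUCE, 10.2, 4.89 and 5.72 CPM with Neurod1delECD, 2.53, 3.75, 3.15 and 9.18 CPM with Neurod1, 5.91, 1.98 and 6.93 CPM with Ascl1a and 2.62, 5.12 and 4.42 CPM in controls. Single libraries of 3 transgene groups stood high, and all groups overlapped the controls. Its log2 fold change was 0.94 with Neurod1delUCE (95% interval -0.40 to 2.28, edgeR FDR 0.837), 0.78 with Neurod1delECD (-0.56 to 2.11, FDR 0.766), 0.20 with Neurod1 (-1.05 to 1.45, FDR 1.0) and 0.28 with Ascl1a (-1.06 to 1.62, FDR 0.951). Increases of more than 2-fold are within all 4 intervals. Summed reads per library size were 2.02 times the control level with Neurod1delUCE (95% counting interval 1.67 to 2.46), 1.79 times with Neurod1delECD (1.49 to 2.17), 1.21 times with Neurod1 (0.999 to 1.48) and 1.1 times with Ascl1a (0.877 to 1.38), intervals that leave out the spread between libraries. For the deleted forms over Neurod1 it was 0.66 (95% interval -0.37 to 1.69, edgeR FDR 1.0).

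The other hydroxylase genes were low in endoderm. tph2, the form of serotonergic neurons, averaged 1.30 ± 0.198 CPM with Neurod1delUCE, 1.00 ± 0.311 CPM with Neurod1delECD, 1.12 ± 0.463 CPM with Neurod1, 0.876 ± 0.414 CPM with Ascl1a and 1.07 ± 0.558 CPM in controls (SD, n = 3, 3, 4, 3 and 3). TPH1 (ENSDARG00000029432) reached 1.02 CPM with Neurod1delUCE, 0.991 CPM with Neurod1delECD, 1.56 CPM with Neurod1, 0.0936 CPM with Ascl1a and 1.06 CPM in controls, each time in 1 library, while the remaining libraries had at most 5 reads. It had 11, 2 and 1 reads with Neurod1delUCE, 0, 2 and 13 with Neurod1delECD, 5, 2, 0 and 26 with Neurod1, 0, 0 and 1 with Ascl1a and 0, 0 and 18 in controls, so 1 library held most reads of each group.

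ddc, the second enzyme, was near the floor in most endoderm libraries. It had 2, 21 and 5 reads with Neurod1delUCE, 1, 17 and 2 with Neurod1delECD, 2, 1, 9 and 1 with Neurod1, 0, 0 and 3 with Ascl1a and 0, 2 and 3 in controls, and it did not pass the filter. The Neurod1delUCE libraries were above the controls, by as little as 0.186 against 0.18 CPM, each from 2 reads. All libraries above all controls were found for 4.6% of the tested genes with Neurod1delUCE. The summed ddc reads of these libraries were 6.67 times the control level (95% counting interval 2.54 to 22.1), with 21 of 28 reads from replicate 2. That library was also the highest in TPH1 (ENSDARG00000036082) among all endoderm and had the highest sum of pancreatic endocrine markers, 1203 CPM. The part of such cells in these reads was not tested.

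The genes for the handling of serotonin overlapped the controls in endoderm with each transgene. slc18a2 had 3, 2 and 1 reads with Neurod1delUCE, 0, 0 and 12 with Neurod1delECD, 5, 2, 0 and 24 with Neurod1, 1, 4 and 6 with Ascl1a and 3, 1 and 2 in controls, and slc6a4b had at most 11 reads in any library. Neither passed the filter. slc6a4a was at 0.819 ± 0.683 CPM with Neurod1delUCE, 1.39 ± 0.477 CPM with Neurod1delECD, 1.25 ± 0.501 CPM with Neurod1, 1.37 ± 0.851 CPM with Ascl1a and 1.48 ± 0.287 CPM in controls (SD, n = 3, 3, 4, 3 and 3), all groups overlapping. mao ranged widely within groups, from 1.42 to 6.05 CPM with Neurod1delUCE, 0.967 to 4.77 CPM with Neurod1delECD, 2.67 to 10.6 CPM with Neurod1, 0 to 5.70 CPM with Ascl1a and 0.0898 to 6.30 CPM in controls. Its log2 fold change with Neurod1 was 1.09 (95% interval -1.33 to 3.52, edgeR FDR 1.0). With this spread within controls, a change of mao of more than 4-fold lies within the interval.

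The WT EEC libraries give the level of these genes as a mean over all sorted EECs, of which enterochromaffin cells are a class. On a scale that normalizes all 23 libraries together, 7 of the 9 genes were higher in WT EECs than in control endoderm and passed the FDR in edgeR's quasi-likelihood test, and none was lower, where 16.1% of the 20397 tested genes were called higher and 22% lower. Their median log2 fold change was 6.69 over the 9 genes, beside -0.193 over all genes. ddc, slc18a2 and slc6a4b had not passed the filter in endoderm and entered this joint test through their reads in EECs. Their calls and the median are thus in part set by the filter and are given as a description. fev was at 863 ± 129 CPM in WT EECs and at 0.479 ± 0.234 CPM in control endoderm (SD, n = 3 each, log2 fold change 10.75, standard error 1.07, edgeR FDR 7.61e-07). ddc stood at 210 ± 78.8 and 0.118 ± 0.103 CPM (log2 fold change 10.66, standard error 1.16, FDR 1.64e-06), from 7816 and 5 reads. TPH1 (ENSDARG00000036082) was at 326 ± 90.4 and 4.07 ± 1.2 CPM, 80.1 times higher in WT EECs by the means (edgeR FDR 7.61e-07), and mao at 306 ± 93.5 and 2.91 ± 3.25 CPM (edgeR FDR 0.000239).

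The transporters and tph2 were lower in CPM and more variable in WT EECs. slc18a2 was at 33.1 ± 27.2 CPM in WT EECs and 0.144 ± 0.0722 CPM in control endoderm (edgeR FDR 0.00537), slc6a4b at 6.41 ± 5.17 and 0.0452 ± 0.0398 CPM (edgeR FDR 0.027) and tph2 at 6.58 ± 3.97 and 1.07 ± 0.516 CPM (edgeR FDR 0.0833). The call of tph2 was lost without the filter on low counts (edgeR FDR 0.112) and without WT EEC replicate 3 or any 1 of the controls (FDR 0.114 to 0.245). slc6a4a did not pass, at 2.02 CPM in WT EECs and 1.49 CPM in control endoderm (log2 fold change 0.44, edgeR FDR 0.832), and neither did TPH1 (ENSDARG00000029432), which had 2, 176 and 0 reads in the WT EEC libraries. Age, sort, dissociation and heat shock differ along with the cell type and cannot be told apart from it.

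**Figure D3:**
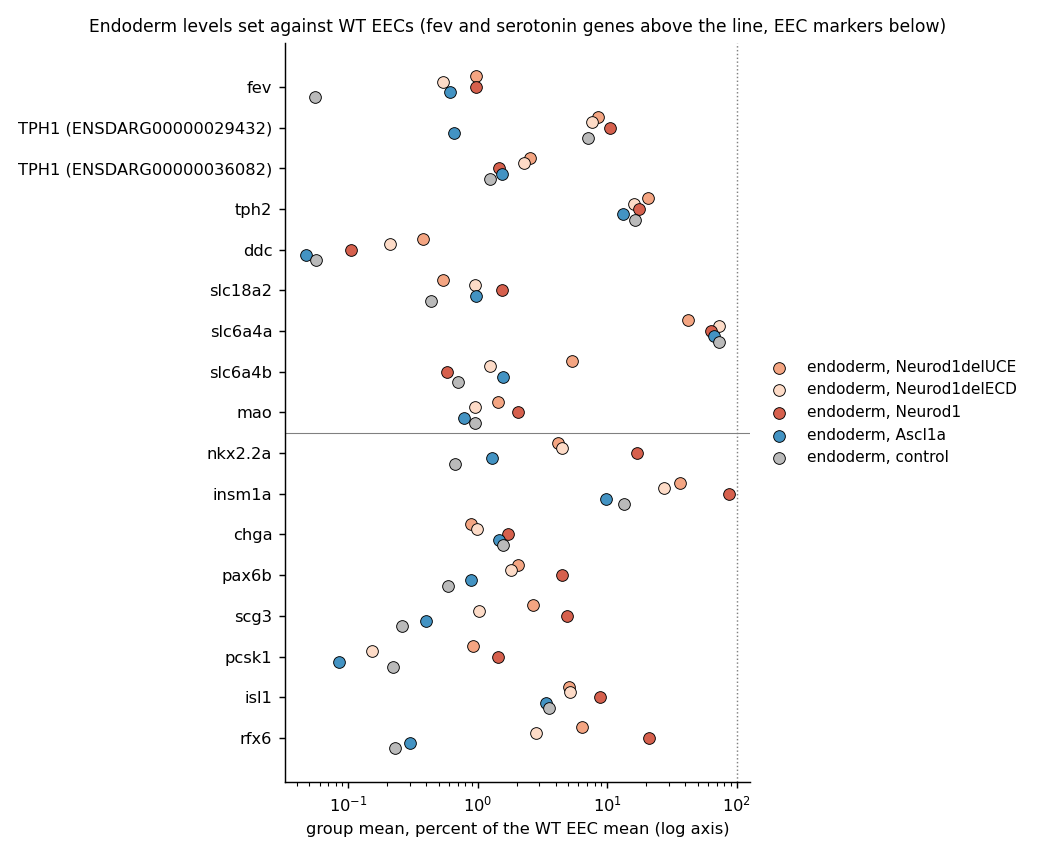
Points give the mean of each endoderm group as a percent of the WT EEC mean on a log axis, for fev and the serotonin genes above the line and for EEC markers other than neurod1 below it. fev lies near 1% with Neurod1delUCE and Neurod1, while with Neurod1 the markers lie between 1.44% for pcsk1 and 86.8% for insm1a; among the serotonin genes the transgene groups lie on both sides of the controls.

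Set against this EEC level, fev in endoderm with a transgene was about 1% or less. It was at 0.974% ± 0.442 of the WT EEC mean with Neurod1delUCE, 0.535% ± 0.377 with Neurod1delECD, 0.973% ± 0.484 with Neurod1, 0.61% ± 0.796 with Ascl1a and 0.0555% ± 0.0271 in controls (SD, n = 3, 3, 4, 3 and 3). In the order of levels, mutant EECs were at 122% ± 29.0 (SD, n = 4) and overlapped WT EECs, every endoderm library was below every EEC library, and the transgene groups overlapped each other. The 9 EEC markers ranged with Neurod1 from 1.44% ± 0.952 for the prohormone convertase gene pcsk1 (0.223% ± 0.322 in controls) and 1.72% ± 2.68 for the granule protein gene chga (1.57% ± 1.87 in controls) up to insm1a. insm1a, a zinc-finger factor of endocrine differentiation, was at 86.8% ± 47.1 of the WT EEC mean with Neurod1 and 13.4% ± 7.26 in controls, rfx6 at 21.1% ± 17.4 and 0.23% ± 0.308, and nkx2.2a at 16.9% ± 14.0 and 0.666% ± 0.843 (SD, n = 4 and 3). The others were isl1 at 8.77% ± 4.21 and 3.59% ± 4.68, neurod1 at 5.64% ± 2.96 and 0.316% ± 0.298, scg3 at 4.91% ± 2.28 and 0.258% ± 0.277, and pax6b at 4.48% ± 2.32 and 0.588% ± 0.473. In the endoderm files, reads shared with the added transgene feature were left out of neurod1. The percent of neurod1 is therefore not like for like. TPH1 (ENSDARG00000036082) was at 1.46% ± 0.938 with Neurod1 and 1.25% ± 0.368 in controls, and ddc at 0.104% ± 0.113 and 0.0564% ± 0.0488. As a description of the means, chga and pcsk1 lay at about the percent of TPH1 (ENSDARG00000036082) with Neurod1 and the other markers, with neurod1 set aside, above it.

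**Figure D4:**
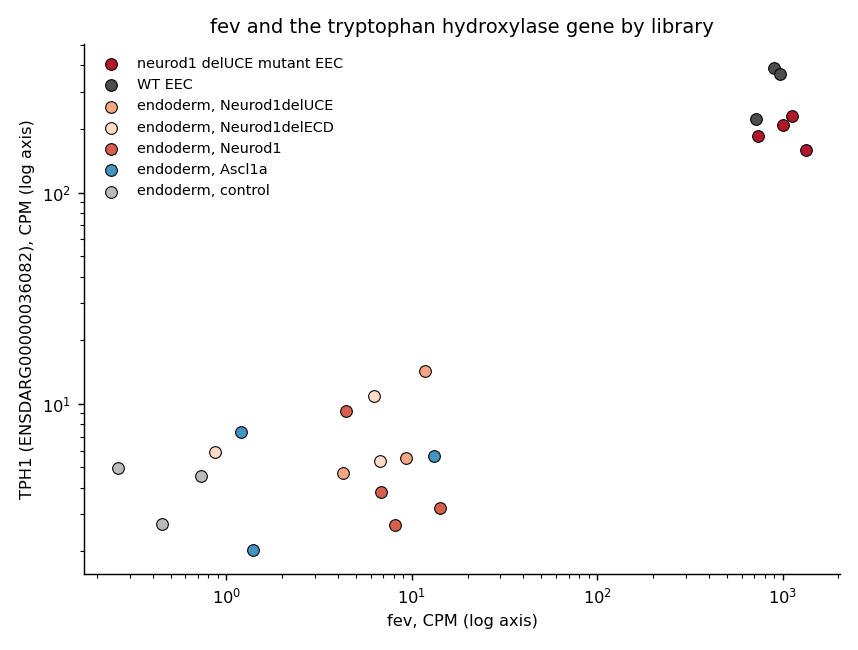
Each point is 1 of the 23 libraries, with the CPM of fev on the horizontal axis and of TPH1 (ENSDARG00000036082) on the vertical axis, both on log axes and with all libraries normalized together; colours mark the groups. Endoderm libraries spread along the fev axis, with TPH1 at 2.03 to 14.4 CPM in libraries with a transgene and 2.71 to 4.96 CPM in controls, and EEC libraries stand apart at the upper right, with 3 of the 4 mutant libraries below all WT libraries in TPH1.

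Across the 16 endoderm libraries, the Pearson correlation with fev of log2(CPM + 1) was 0.372 for tph2, 0.396 for ddc, 0.227 for TPH1 (ENSDARG00000036082), 0.112 for mao and 0.016 for slc6a4b, and -0.186, -0.22 and -0.272 for TPH1 (ENSDARG00000029432), slc6a4a and slc18a2. For each of the 8, at least 1354 of 18910 genes correlated more highly with fev. The 10 genes most like fev were grnas (r = 0.876), pax6b (0.839), zdhhc16a (0.827), dre-mir-375-2 (0.813), ENSDARG00000097122 (0.799), RPRM, bean1, xkr8.2, rasd4 and rnf145b (0.777). pax6b, a homeobox factor of endocrine cells, and the locus of miR-375, a microRNA of endocrine cells, were both counted at low levels, with means of 8.96 and 0.702 CPM. The 16 libraries belong to 5 groups, so differences between the groups enter each r, which is given as a description only.

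In EECs, fev was high in both genotypes. It was at 799, 1452, 1203 and 1086 CPM in mutant EECs, against 951, 1051 and 767 CPM in WT EECs. The groups overlapped, with 3 mutant libraries above all WT libraries. The log2 fold change was 0.30 (95% interval -0.42 to 1.02, edgeR FDR 1.0), so a fall of fev to 0.5 of the WT level lies outside the interval.

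None of the 9 genes passed the FDR between mutant and WT EECs in edgeR or in DESeq2, where edgeR called 0.00619% of the 16154 tested genes higher and 0.0124% lower and DESeq2 0.39% and 0.229%. Their median log2 fold change was 0.01, beside 0.0235 over all genes. At an unadjusted p under 0.05 there were 2, slc18a2 and TPH1 (ENSDARG00000036082), both lower in the mutant, and 3.7% of all tested genes were below this p. Libraries that do not overlap, on the lower side, were found for slc18a2 alone, as for 3.42% of all genes, and on the higher side for none of the 9, as for 3.21% of all genes.

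slc18a2, which loads serotonin and other monoamines into vesicles, was at 9.94, 0, 0.302 and 6.38 CPM in mutant EECs, against 18.1, 19.2 and 68.8 CPM in WT EECs. Every mutant library was below every WT library, 2 of the 4 mutant libraries were at or near the floor with 0 and 4 reads, and WT replicate 3 was far above the other WT libraries. The log2 fold change was -3.08 (standard error 1.29, 95% interval -5.93 to -0.23, edgeR FDR 1.0, unadjusted p = 0.0365), with 199 reads in the 4 mutant libraries and 1124 in the 3 WT libraries. Without WT replicate 3, or another library in turn, it ranged from -3.99 to -2.16 with FDRs of 0.998 or more, and with DESeq2 the adjusted p was 0.416. The direction was thus the same in all these settings, and the FDR passed in none.

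**Figure D5:**
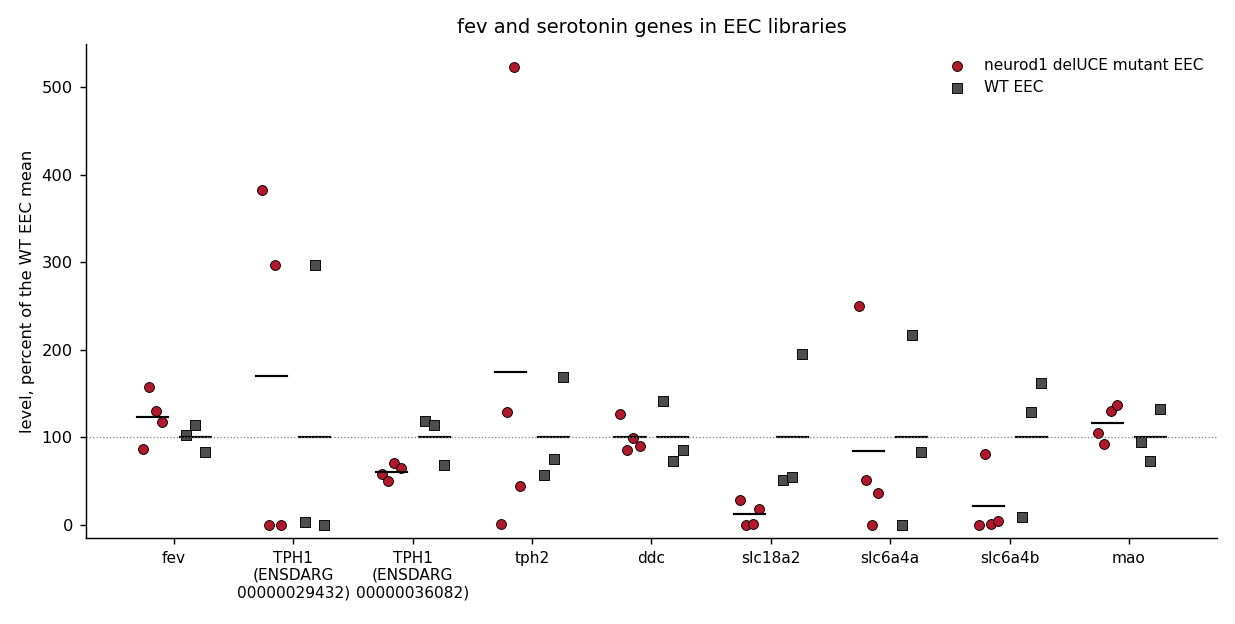
The vertical axis gives each EEC library as a percent of the WT EEC mean for each of the 9 genes; circles are the 4 mutant libraries, squares the 3 WT libraries and bars group means. The slc18a2 circles lie below all squares, TPH1 (ENSDARG00000036082) lies mostly below 100%, and fev, ddc and mao lie around 100% in both groups.

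TPH1 (ENSDARG00000036082), the hydroxylase gene with the most reads in EECs, was at 202, 172, 247 and 225 CPM in mutant EECs, against 411, 397 and 237 CPM in WT EECs. WT replicate 3 lay inside the mutant range, and the other 2 WT libraries were above it. The mutant mean of 212 ± 32.1 CPM (SD, n = 4) was 0.608 times the WT mean of 348 ± 96.9 CPM (SD, n = 3). The log2 fold change was -0.72 (standard error 0.32, 95% interval -1.42 to -0.02, edgeR FDR 1.0, unadjusted p = 0.0447), and it ranged from -0.92 to -0.58 without each library in turn.

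ddc and mao did not differ beyond the spread of the libraries. ddc was at 283, 192, 223 and 202 CPM in mutant EECs, against 317, 163 and 192 CPM in WT EECs, a log2 fold change of 0.01 (95% interval -0.73 to 0.74, edgeR FDR 1.0). mao was at 344, 302, 424 and 449 CPM in mutant EECs, against 308, 240 and 433 CPM in WT EECs, a log2 fold change of 0.21 (95% interval -0.50 to 0.93, edgeR FDR 1.0). The intervals leave room for a change of up to about 2-fold in either gene.

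The remaining genes varied widely between EEC libraries of the same group. tph2 was at 0.0758, 9.03, 36.8 and 3.09 CPM in mutant EECs, against 3.97, 5.28 and 11.8 CPM in WT EECs. TPH1 (ENSDARG00000029432) had 277, 0, 216 and 0 reads in mutant EECs, against 2, 176 and 0 in WT EECs. slc6a4b was at 0, 5.58, 0.0755 and 0.299 CPM in mutant EECs, against 0.61, 8.90 and 11.1 CPM in WT EECs, and slc6a4a at 5.46, 1.12, 0 and 0.797 CPM in mutant EECs, against 0, 4.73 and 1.82 CPM in WT EECs. Each library came from 1000 to 2000 sorted cells, and the log2 fold changes of these genes had standard errors of 1.32 to 2.14.

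Markers of other cells also varied between EEC libraries. The 9 EEC markers summed to 4613 to 5466 CPM in mutant EECs and 4954 to 6107 CPM in WT EECs, and 7 counted neuronal markers to 857 to 1047 CPM in mutant EECs and 652 to 916 CPM in WT EECs. Most of the neuronal sum was 1 gene, ret, which averaged 737 CPM in mutant EECs and 577 CPM in WT EECs. The next highest, gap43, averaged 50.0 and 53.4 CPM, so the sum does not measure neurons in these sorts. Single neuronal markers did vary between libraries. phox2bb was at 0 to 89.9 CPM in mutant EECs and 27.8 to 63.6 CPM in WT EECs, and elavl3 at 9.77 to 88.4 and 22.3 to 34.6 CPM. WT replicate 2 had 3486 CPM of hepatocyte and 1015 CPM of goblet cell markers, against at most 236 and 238 CPM in the other EEC libraries. The 4 enterocyte markers summed to 2386 to 4712 CPM in mutant EECs and 1795 to 3328 CPM in WT EECs. Of them cdh17 alone did not overlap, at 932 to 1504 CPM in mutant EECs and 755 to 862 CPM in WT EECs. The epithelial marker epcam did not overlap in the other direction, at 363 to 521 CPM in mutant EECs and 681 to 967 CPM in WT EECs. Over all tested genes 3.21% were higher and 3.42% lower without overlap. The part of neurons and other such cells in the levels of the 9 genes was not tested. Pigment cell markers were at most 53.4 CPM in mutant EECs and 3.28 CPM in WT EECs. Without WT replicate 2, which is among the replicates left out in turn above, slc18a2 and TPH1 (ENSDARG00000036082) stayed lower in the mutant. Leaving out this library does not test the part of other cells.

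Over the 7 EEC libraries, the genes most like fev were POP4 (r = 0.993), npdc1a, b3gntl1 (both 0.981), cldn15lb (0.971), ier2a (0.97), MFSD6L, CYB5A, pnp4b, ftr56 and slc6a19b (0.959). ier2a is an immediate early gene and cldn15lb a claudin of tight junctions. Of the serotonin genes, slc18a2 had an r of -0.858 with fev and tph2 0.456, with the others from -0.402 to 0.004. The genes most like TPH1 (ENSDARG00000036082) were tom1 (r = 0.979), HTRA1 (0.964), hist1h2a8, pmaip1, hist1h2a9, pfn1, oaz1a, vegfaa, si:dkey-108k21.10 and ENSDARG00000115875 (0.943), and without the 2 libraries farthest from its median these r ranged from 0.408 to 0.876. For TPH1 (ENSDARG00000029432) they were vcanb (0.991), NCOA5, PRPH, sgk2b, NDRG1, cltrn, col6a3, myo1ca, SEMA3A and serpinf1 (0.965). With 7 libraries and 16153 genes such values describe these libraries only.

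The genes around the serotonin chain were described as lists. In endoderm, 1 gene of all the lists passed edgeR's FDR against controls: insm1b, a zinc-finger factor of the serotonergic neuron list that other endocrine cells also use, was at 227 ± 96.7 CPM with Neurod1 and 17.7 ± 4.52 CPM in controls (SD, n = 4 and 3, log2 fold change 3.68, edgeR FDR 0.0208). It also passed with Neurod1 over Ascl1a, where it was at 18.8 ± 11.1 CPM with Ascl1a (SD, n = 3, edgeR FDR 0.0459). DESeq2 called insm1b higher with Neurod1delUCE, Neurod1delECD and Neurod1. With Neurod1 it called 2 more, nkx2.2a and insm1a, higher, and with Ascl1a it called 1, the ascl1a reading frame. The median log2 fold change of the 13 tested genes of that list was -0.39 with Neurod1delUCE, -0.63 with Neurod1delECD, -0.50 with Neurod1 and -0.8 with Ascl1a. In the same order, 3, 2, 4 and 3 of them had an unadjusted p under 0.05 in edgeR. Over all genes with Neurod1, edgeR called 0.0423% higher and DESeq2 0.418%. DESeq2 called 0.746% higher with Neurod1delUCE, 0.312% with Neurod1delECD and 0.1% with Ascl1a. An unadjusted p under 0.05 was found for 7.11% of genes with Neurod1delUCE, 6.13% with Neurod1delECD, 4.25% with Neurod1 and 6.11% with Ascl1a.

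For the supply of the hydroxylases, no list gene passed in endoderm with edgeR. Of the 7 tested genes for tetrahydrobiopterin (BH4), the cofactor of the hydroxylases, none passed with any transgene in edgeR or DESeq2 and none had an unadjusted p under 0.05, with medians of -0.32 with Neurod1delUCE, -0.09 with Neurod1delECD, 0.19 with Neurod1 and -0.07 with Ascl1a. Of the 4 tested genes for tryptophan uptake none passed in edgeR either, with a median of 0.57 with Neurod1delUCE, 0.41 with Neurod1delECD, 0.88 with Neurod1 and 0.79 with Ascl1a. An unadjusted p under 0.05 was found for 2 of these 4 genes with each Neurod1 form and for 1 with Ascl1a. Over all genes it was found for 7.11% with Neurod1delUCE, 6.13% with Neurod1delECD, 4.25% with Neurod1 and 6.11% with Ascl1a. slc3a2a, the heavy chain of amino acid exchangers, averaged 187 ± 106 CPM with Neurod1delUCE, 152 ± 43.2 CPM with Neurod1delECD, 142 ± 50.8 CPM with Neurod1, 110 ± 25.1 CPM with Ascl1a and 46.6 ± 11.7 CPM in controls (SD, n = 3, 3, 4, 3 and 3). No library with a transgene overlapped the controls, and DESeq2 called slc3a2a with Neurod1delUCE, Neurod1delECD and Neurod1, and slc7a8a with Neurod1delUCE. All libraries above all controls were found for 4.6% of genes with Neurod1delUCE, 8.97% with Neurod1delECD, 4.03% with Neurod1 and 6.48% with Ascl1a. In the same order, DESeq2 called 0.746%, 0.312%, 0.418% and 0.1% of genes higher. slc3a2a serves the uptake of many amino acids and is not particular to serotonin. Of the tested genes for other amine transporters (3), further serotonin and tryptophan metabolism (7) and serotonin receptors (7), none passed in edgeR with any transgene, with at most 2 genes of a list under an unadjusted p of 0.05, and DESeq2 called 1, ido1, with Neurod1delUCE. The same held for the 3 ETS factors closest to fev, the 1 tested relative of the hydroxylases and the 7 genes known from enterochromaffin cells, of which DESeq2 called none and at most 1 of a list had such a p.

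The lists were also compared between WT EECs and control endoderm, where 16.1% of all tested genes were called higher and 22% lower. A gene could enter this joint test through its reads in 1 of the 2 kinds of cells alone. gch1, the first enzyme of BH4 synthesis, was higher in WT EECs, at 128 ± 38.5 CPM against 9.44 ± 3.19 CPM in control endoderm (log2 fold change 3.75, edgeR FDR 0.00466). gch2, its paralog known from zebrafish pigment cells, was lower, at 1.26 ± 0.784 CPM in WT EECs and 118 ± 163 CPM in control endoderm (edgeR FDR 0.0786). Pigment cell markers summed to 0.0927 to 3.28 CPM in WT EECs and 179.8 to 561 CPM in control endoderm, and their part was not tested. Of the 7 tested BH4 genes 2 were higher and 2 lower, with a median of 0.61, the others being 2 genes named QDPR, which recycle the cofactor, 1 in each direction. For tryptophan uptake, slc3a2a and slc7a8a were higher, 2 of 4 tested genes with a list median of 2.1. slc3a2a was at 674 ± 48.8 CPM in WT EECs against 47.0 ± 12.0 CPM in control endoderm (edgeR FDR 7.22e-06), and slc7a8a, a light chain of such exchangers, at 342 ± 72.6 against 68.2 ± 18.8 CPM (edgeR FDR 0.001).

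Of 10 tested serotonin receptor genes, htr1aa, htr1b and htr1fa, receptors of the inhibitory HTR1 family, were higher in WT EECs and 1 named HTR5A was lower, with a median of 0.55. htr1aa was at 20.6 ± 3.22 CPM in WT EECs and 0.0202 ± 0.0349 CPM in control endoderm, where no library had more than 1 read (edgeR FDR 0.00575). Among other amine transporters slc6a3, the dopamine transporter, was higher, 1 of 4 tested, at 20.6 ± 9.99 against 0.0492 ± 0.0446 CPM (edgeR FDR 7.87e-05), and of 8 tested genes of further serotonin and tryptophan metabolism ido1 was higher and aldh2.2 and aanat2 were lower. Among the factors of serotonergic neurons, insm1b, foxa2, nkx2.2a, LMX1B (ENSDARG00000104815), insm1a and lmx1al were higher and 6 features lower, of 15 tested with a median of 1.07. LMX1B, known in mouse to act with Fev in serotonergic neurons, was at 111 ± 32.1 CPM in WT EECs and 0.417 ± 0.375 CPM in control endoderm (edgeR FDR 0.000118). The lower features were en1a, en1b and EN2 of the midbrain and hindbrain, gata2a, and 2 features of ascl1a. The 3 ETS factors closest to fev, erg, fli1 and fli1rs, known from blood vessels and blood, were lower too, 3 of 3 tested. Of 7 enterochromaffin cell genes 6 were higher, with a median of 9.03, among them trpa1b, the irritant channel of these cells, at 549 ± 235 CPM in WT EECs and 1.04 ± 0.0125 CPM in control endoderm (edgeR FDR 3.23e-08). In none of these lists did a gene pass between mutant and WT EECs in edgeR, where 1 gene for uptake, 1 other amine transporter and 3 enterochromaffin cell genes had an unadjusted p under 0.05 and DESeq2 called 1 gene, tac1. Of all tested genes, 3.7% had such a p, and DESeq2 called 0.229% lower.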

How the data were processed

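The authors trimmed the reads (75-base single-end, Smart-seq2 with 13 PCR cycles and Nextera XT), mapped them with STAR 2.5.4b to GRCz11 (Ensembl annotation) and deposited raw counts per gene, without normalization, in 1 file per library. The ascl1a reading frame (named ascl1b in the name table) and a neurod1 feature added by the authors served to check the transgenes. The strand setting of the counting is not given in the sources used here, so counts of overlapping genes and of near-identical copies are uncertain. Groups and replicate numbers come from the labels. Gene names come from the name tables (29195 of 31902 features), used for names only. No sequence or coordinate is given.

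Counts were normalized with TMM and tested with edgeR 4.0.16 in R 4.3.3 (filterByExpr, quasi-likelihood test, Benjamini-Hochberg over all genes tested), in separate fits of 16 endoderm and 7 EEC libraries and a joint fit of 23 libraries (20397 genes) for levels across both. Standard errors derive from the F statistic. Code was tested on simulated data. The same results were recomputed with DESeq2 1.42.0, with RLE normalization, without the filter, with the replicate number as a block, on the compared groups alone, at an FDR of 0.05, above an average of 10 CPM (EECs) and without each library in turn. The text names all 9 genes, up to 4 genes past the FDR per list and comparison by p, and the 10 genes most like fev or TPH1. In endoderm, insm1a, rfx6, nkx2.2a, slc3a2a, ido1 and, in its list, the ascl1a reading frame were named after their values were seen. So were genes beyond the first 4 of the serotonergic factor list. The 9 genes and all lists were chosen with earlier results of these data known.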

Additional observations from a re-analysis of the deposited data

Results flagged for a closer look

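Among the mutant EEC libraries, slc6a4b, a serotonin reuptake transporter, stood apart in replicate 2, at 5.58 CPM from 55 reads, against 0, 0.0755 and 0.299 CPM in the other 3 mutant libraries, a gap to the next library of 0.946 of the whole range. WT EECs were at 0.61, 8.90 and 11.1 CPM, so this library lay within the WT range. It was the 1 value set apart in this way among 18 groups of 4 libraries that were looked at. For normally distributed values chance sets apart about 1 in 20 groups. That rate need not hold for skewed values near the floor such as these.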

How the results depend on the processing

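Of the log2 fold changes of the 9 genes, 552 of 619 recomputed values kept their direction and their side of the FDR, 58 changed sign (53 of them on leaving out 1 library), 6 lost a call (tph2 in WT EECs over control endoderm, edgeR FDR 0.127 with the replicate block) and 3 gained one (fev with DESeq2). Totals of DE genes moved far more. With DESeq2 they were 229 (11 with edgeR) for Neurod1delUCE, 74 (8) for Neurod1delECD, 103 (8) for Neurod1 and 75 (3) for Ascl1a over controls, 25 (0) for the deleted forms over Neurod1, 138 (7) for Neurod1 over Ascl1a and 100 (3) for mutant over WT EECs. Without the filter they were 20 for Neurod1delUCE and 38 for mutant EECs. On the compared groups alone they were 0 for Neurod1delUCE, 3 for Neurod1delECD, 14 for Neurod1, 0 for Ascl1a and 0 for Neurod1 over Ascl1a, and at an FDR of 0.05 they were 2 for Neurod1delECD, 0 for Ascl1a and 4 for Neurod1 over Ascl1a. Leaving out 1 library gave 1 to 65 for Neurod1delUCE (65 without Neurod1delUCE replicate 1), 0 to 4 for Neurod1delECD, 0 to 11 for Neurod1, 0 to 2 for Ascl1a, 0 to 2 for the deleted forms over Neurod1, 0 to 10 for Neurod1 over Ascl1a and 0 to 4 for mutant EECs. The cause was not tested.

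Same-numbered libraries did not all deviate together (correlations 0.292, 0.018 and 0.203 for Neurod1 and 0.226, 0.0806 and 0.118 for Ascl1a over controls, 0.0283, -0.0184 and -0.0937 for mutant over WT EECs, and as low as -0.392 for Neurod1delUCE). In no comparison were all above 0.1, so the numbers were not taken as pairs. With the replicate block the totals were 5 for Neurod1delUCE, 3 for Neurod1delECD, 0 for Ascl1a, 2 for Neurod1 over Ascl1a and 0 for mutant EECs. TPH1 (ENSDARG00000036082) became -0.36 for Neurod1, TPH1 (ENSDARG00000029432) 0.29 for Neurod1delECD and 0.63 for the deleted forms over Neurod1, and tph2 -0.12 for the deleted forms over Neurod1 and -0.25 for mutant EECs.

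Without 1 library at a time, these log2 fold changes changed sign. TPH1 (ENSDARG00000029432), whose reads come mostly from 1 or 2 libraries per group, ranged from -1.52 to 5.53 for Neurod1delUCE, -2.5 to 5.31 for Neurod1delECD, -0.99 to 5.87 for Neurod1, -5.38 to 2.08 for Ascl1a, -0.96 to 1.07 for the deleted forms over Neurod1 and -2.15 to 9.02 for WT EECs over control endoderm. TPH1 (ENSDARG00000036082) ranged from -0.36 to 0.41 for Neurod1, -0.05 to 0.66 for Ascl1a and -0.65 to 0.25 for Neurod1 over Ascl1a. tph2 ranged from -0.35 to 0.40 for Neurod1delECD, -0.25 to 0.57 for Neurod1, -0.74 to 0.19 for Ascl1a, -0.11 to 0.35 for the deleted forms over Neurod1 and -0.79 to 1.42 for mutant EECs. slc6a4a ranged from -0.34 to 0.15 for Neurod1delECD, -0.74 to 0.18 for Ascl1a, -0.41 to 0.06 for the deleted forms over Neurod1, -0.43 to 0.49 for Neurod1 over Ascl1a, -1.77 to 1.02 for mutant EECs and -0.81 to 1.02 for WT EECs over control endoderm. mao ranged from -0.01 to 1.91 for Neurod1delUCE, -0.76 to 1.29 for Neurod1delECD and -2.06 to 1.1 for Ascl1a, and ddc from -0.18 to 0.34 for mutant EECs. None of these had passed the FDR. Depth limits ddc, slc18a2 and slc6a4b in endoderm, which were at or near 3 counts in most libraries.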

Other observations

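The EEC libraries also hold genes known from serotonin-producing enterochromaffin cells of the zebrafish gut. tac1, which encodes the tachykinin precursor, was at 0.228, 3.75, 0 and 0.598 CPM in mutant EECs, against 51.9, 17.2 and 55.3 CPM in WT EECs. Every mutant library was below every WT library, by a log2 fold change of -5.19 (standard error 1.24). It did not pass in edgeR's quasi-likelihood test (FDR 0.598, unadjusted p = 0.00156), while DESeq2 called it lower, the only one of the 6 tested genes of this list that either tool called. calca, the calcitonin precursor, was also below all WT libraries, at 857 ± 101 CPM in mutant EECs and 1313 ± 250 CPM in WT EECs (SD, n = 4 and 3, log2 fold change -0.62, edgeR FDR 1.0). Of all tested genes, 3.42% were lower without overlap, and DESeq2 called 0.229% lower.

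The list did not move one way. trpa1b, the irritant channel of these cells, was at 845 ± 432 CPM in mutant EECs and 586 ± 247 CPM in WT EECs, and penka, the enkephalin precursor, at 33340 ± 20280 and 13900 ± 4746 CPM (SD, n = 4 and 3, edgeR FDR 1.0 each). penka reached 53800 CPM in mutant replicate 3 and was at 11510 CPM in mutant replicate 4. adcyap1a, a neuropeptide gene, was at 3062 ± 475 CPM in mutant EECs and 5446 ± 2340 CPM in WT EECs (edgeR FDR 1.0). The median log2 fold change of the 6 tested genes was -0.16, with 3 of them under an unadjusted p of 0.05, as were 3.7% of all tested genes.

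In the lists for BH4, tryptophan uptake, other amine transporters, serotonin receptors and serotonergic factors, 6 of 32 tested genes did not overlap between the genotypes, 2 higher and 4 lower, and none passed edgeR's FDR. Over all tested genes 3.21% were higher and 3.42% lower without overlap. slc6a3, the dopamine transporter, was higher, at 52.7 ± 23.0 CPM in mutant EECs and 22.1 ± 10.8 CPM in WT EECs, as was slc3a2b. slc7a8a was lower, at 180 ± 65.5 CPM in mutant EECs and 366 ± 77.3 CPM in WT EECs, as were the receptor gene htr1aa, pts and slc22a3.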
